A study of Mus musculus with 4 samples.

Results

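HT-22 cells at rest are the subject here, through 1 library (Ctrl) whose gene levels were ranked. Members were the genes whose deposited transcripts summed to 1 FPKM or more in Ctrl, FPKM being fragments scaled by transcript length and by the mapped fragments of the library. This took in 10644 of the 11502 mouse genes that had a row in the table. The rule used the level itself, so that all members lie at or above 1 FPKM is a description and not a result. AI661453 at 1.00068 FPKM was the last member inside, and Slc35a5 at 0.999036 FPKM the first gene outside.

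HT-22 is an immortalized cell line made from mouse hippocampal neurons. It divides in culture and is widely used to study death by oxidative stress: extracellular glutamate blocks the cystine antiporter, the cells run short of glutathione, and they die without any need for glutamate receptors. Mature neurons, by contrast, leave the cell cycle and are known by their cytoskeleton (Map2, Tubb3, neurofilaments), their synaptic vesicle proteins, their voltage-gated channels and their transmitter receptors. Outside neurons, many of these genes are held silent by REST, a zinc finger protein that recruits histone-modifying corepressors.

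The study sequenced 4 groups with 1 library each, and poly(A) RNA was read from both ends. Ctrl is labelled wild type and untreated, and by the study's methods its cells carried a negative control lentivirus and had passed puromycin selection. The PGC-1α group carried a lentivirus that overexpresses PGC-1α, a coactivator that raises mitochondrial gene expression, and the groups Ctrl+OGD and PGC-1α+OGD held such cells after oxygen and glucose deprivation (OGD) for 2 h and then normal medium for 24 h. All groups were lentivirus-treated cells of 1 immortalized line, and no second clone or primary neuron was compared. With 1 library per group no value has a replicate error, no test was possible and no p value is given. Where values of the 4 libraries follow each other below, Ctrl stands first, then PGC-1α, then Ctrl+OGD and last its counterpart with PGC-1α. The range of such values holds the effects of PGC-1α overexpression and OGD together with differences of culture and library. The reads behind each library are unknown.

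A missing row has to be read with care. Transcripts in the table had a value of at least 0.5002 in at least 1 library, so a gene without a row is called not listed, which is not the same as silent. To see how complete the table was, families were chosen by symbol after the values had been seen. All 240 genes of 8 families that every cell uses, among them the Mediator and RNA exosome subunits, the mitochondrial ribosomal proteins and the NADH dehydrogenase subunits, were listed, and 237 of them reached 1 FPKM. In 6 further such families (cytosolic ribosomal, proteasome, chaperonin, spliceosomal Sm, initiation factor and ATP synthase genes), 173 of 174 protein-coding symbols were listed, all but Rpl10l. The table is still not complete for such genes: the chaperonin subunit gene Cct6a, which the annotation types as a noncoding processed transcript, was not listed. A listed value can also be low for a gene usually abundant, as for the actin-binding Tmsb4x at 4.26 FPKM beside its relative Tmsb10 at 400.3 FPKM. Of 1420 olfactory and vomeronasal receptor genes, 0 were listed. Over all 21992 protein-coding symbols of the annotation, 52.2% were listed and 48.3% reached 1 FPKM in Ctrl, and each count below is to be read beside these shares.

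The most abundant messages came from the mitochondrial genome and the translation machinery. mt-Co1, the catalytic subunit of cytochrome oxidase, was first at 2398 FPKM, followed by mt-Cytb at 1972 FPKM and the ribosomal protein gene Rps27 at 1639 FPKM. Among the 20 highest genes, 8 were mitochondrially encoded and 7 encoded cytosolic ribosomal proteins. The others were Fth1 (ferritin heavy chain, 1557 FPKM), Pabpc1 (poly(A)-binding protein, 1359 FPKM), Hsp90ab1 (cytosolic HSP90, 1251 FPKM), Eef1a1 (elongation factor, 1186 FPKM) and Hsp90b1 (HSP90 of the endoplasmic reticulum, 999 FPKM). Ribosomal protein genes have many processed pseudogenes and mt-Atp8 overlaps mt-Atp6, so how reads were divided among such copies is uncertain. The 20 highest genes held 8.09% of the column total, 810 genes held 50%, and the median member stood at 12.8 FPKM (quartiles 5.64 and 28.2). Of the members, 525 reached 100 FPKM and 17 reached 1000 FPKM. The other libraries held 10599, 10505 and 10494 genes at 1 FPKM or more, and 10174 members (95.6%) reached 1 FPKM in all 4.

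**Figure D1:**
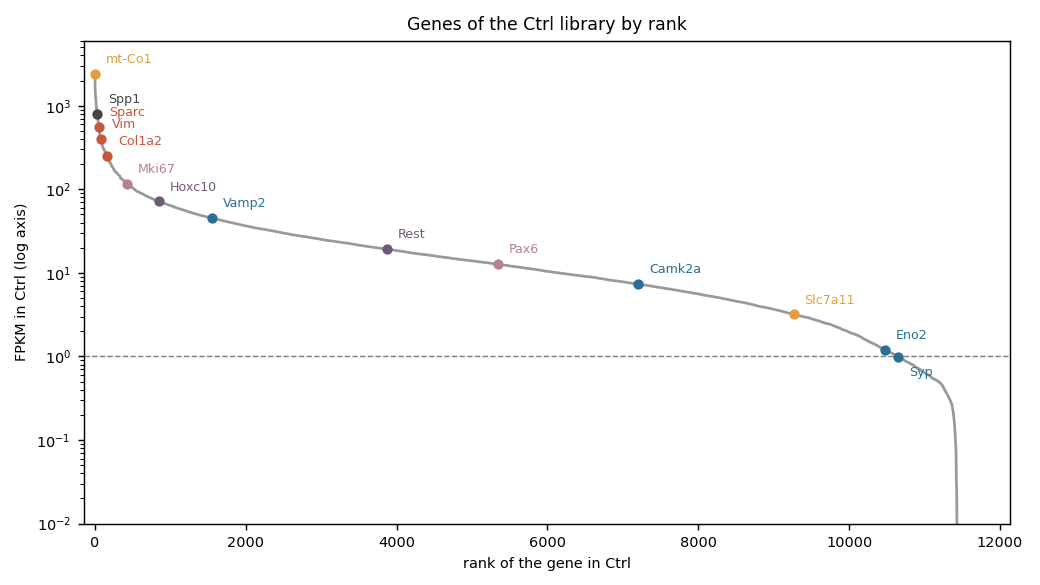
Level in Ctrl (FPKM per gene, log axis) against rank, with 14 genes of the text marked and the 1 FPKM threshold dashed. Matrix and cytoskeletal genes (Sparc 557 FPKM, Vim 398 FPKM) sit near the top, while Camk2a (7.31 FPKM), Eno2 (1.20 FPKM) and Syp (0.997 FPKM) lie far to the right.

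The label was checked first, against defining markers of cell types. Of 10 markers of neurons, Rbfox3 (NeuN), Map2, Tubb3, Nefl, Snap25, Syn1, Stmn2, Dcx and Elavl4 were not listed. Syp, the vesicle protein synaptophysin, was the 1 listed, at 0.997, 0.258, 0.893 and 0.507 FPKM, below 1 in every library. In RNA from whole cultures, fewer cells that express a gene and less RNA per cell cannot be told apart. The vesicular glutamate transporters Slc17a7 and Slc17a6 and the GABA-synthesizing enzymes Gad1 and Gad2 were not listed either. Of the hippocampal markers, Prox1, Neurod1, Neurod6, Bcl11b and Emx1 were not listed.

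Among other regulators of the forebrain, Emx2 was present at a low level, at 2.58, 2.52, 3.32 and 2.81 FPKM. The listed neuronal markers were few, and the term neuron is used here only as the name the line carries.

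**Figure D2:**
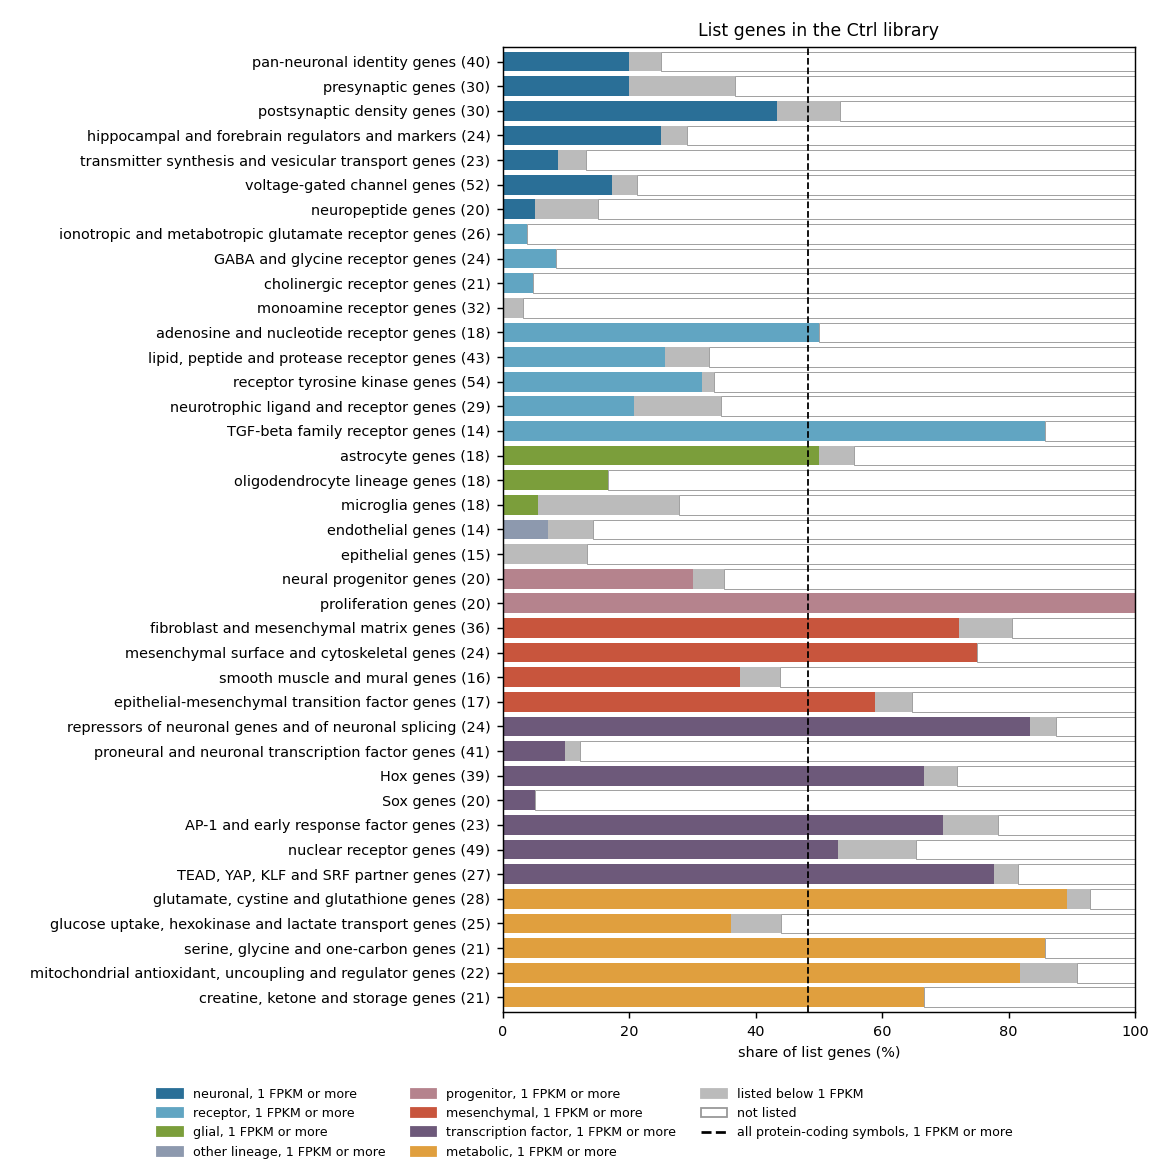
Share (%) of the genes of 39 lists (number of genes in brackets) that reached 1 FPKM in Ctrl (coloured by category), were listed below 1 FPKM (grey) or were not listed (white), with the 48.3% of all protein-coding symbols dashed. Neuronal and transmitter receptor lists lie mostly left of the line and mesenchymal matrix, proliferation and most metabolic lists right of it.

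Genes of neuronal function were mostly not listed. Over 7 lists with 219 genes, 45 (20.5%) reached 1 FPKM and 158 were not listed, beside 48.3% of all protein-coding symbols at that level. Of the 45, 39 reached 1 FPKM in all 4 libraries. The 40 pan-neuronal identity genes gave 8 members, and 30 were not listed, including the tau gene Mapt, all 3 neurofilament genes Nefl, Nefm and Nefh, the growth cone genes Gap43 and Basp1, and the granin genes Chga, Chgb and Scg2.

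The highest of the 8 members of that list was Map1b, a microtubule-associated protein of growing axons, at 43.5, 35.9, 48.8 and 44.5 FPKM. L1cam, an axonal adhesion molecule, was at 22.7, 18.0, 20.5 and 17.8 FPKM. Both kept close to their Ctrl level in the other libraries. Kif5a, an axonal transport motor, was more variable, at 6.55 FPKM in Ctrl and 3.69, 3.55 and 2.81 FPKM elsewhere. Tubb4a (5.07 FPKM), Elavl2 (3.77 FPKM), Ncam1 (1.39 FPKM) and Eno2 (1.20 FPKM) were lower members.

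Presynaptic genes gave 6 members of 30. Vamp2, the vesicle fusion protein of synapses, was at 45.1, 44.6, 45.9 and 42.2 FPKM, nearly level across the libraries. Dnm1, the dynamin of synaptic vesicle retrieval, was at 19.2, 13.3, 12.1 and 13.2 FPKM, highest in Ctrl. The target membrane partners of Vamp2 at synapses, Snap25 and Stx1a, were not listed, nor were the calcium sensor Syt1 and the active zone genes Bsn, Pclo and Rims1. Postsynaptic density genes had the largest share of the neuronal lists, 13 of 30 (43.3%), still a little below the 48.3% of all protein-coding symbols. Among them were Baiap2 (30.5 FPKM), the immediate early gene Arc (12.3 FPKM), the adhesion molecule Nlgn2 (10.4 FPKM), Homer3 (8.89 FPKM) and Iqsec1 (8.34 FPKM). Homer3 shares exon bases on the opposite strand with Ddx49 (11.6 FPKM). The scaffold Dlg4 (PSD-95) was at 1.93 FPKM, and Shank2, Shank3, Dlg2 and the AMPA receptor partners Cacng2, Cacng3 and Cacng8 were not listed.

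Genes that make, load or carry transmitters gave 2 members of 23. Slc6a9, a glycine transporter also used outside neurons, was at 9.98 FPKM, and Tph2, the brain tryptophan hydroxylase, lay near the threshold at 1.08, 0.857, 1.01 and 0.892 FPKM. Chat, which makes acetylcholine, was not listed, and Ache, which breaks it down, was listed at 0.316 FPKM. Of 20 neuropeptide genes, Vgf alone reached 1 FPKM, at 3.14 FPKM. The list of voltage-gated channels, which also holds calcium-activated potassium channels, gave 9 of 52. Highest were the pacemaker channel Hcn2 (16.1 FPKM) and the calcium-activated potassium channel Kcnn4 (14.7 FPKM). The P/Q-type calcium channel Cacna1a (7.68 FPKM), Kcnh2 (7.63 FPKM) and Cacnb1 (4.56 FPKM) followed. Kcnn4 and Kcnn1 (3.94 FPKM), both counted among the 9, are not opened by voltage. Of the pore-forming sodium channel genes in the list, Scn2a was listed at 0.524 FPKM and Scn1a, Scn3a, Scn8a and Scn9a were not listed. The hippocampal and forebrain list gave 6 of 24, with the semaphorin receptor Nrp2 (78.7 FPKM) highest and Wfs1 (10.6 FPKM) among the others.

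Set beside relatives that most cells use, the neuronal partner was usually the lower or the unlisted one. In 23 pairs of related genes, the widely expressed partner was listed in all 23, at 12.2 to 253 FPKM. The neuronal partner was not listed in 10 pairs, for example Snap25 (with Snap23 at 28.8 FPKM), Tubb3 (with Tubb5 at 196 FPKM), Stmn2 (with Stmn1 at 211 FPKM), Rbfox3 (with Rbfox2 at 40.1 FPKM), Elavl4 (with Elavl1 at 14.8 FPKM) and Actl6b (with Actl6a at 31.1 FPKM). Where both were listed, the widely expressed partner was higher in 11 of 13 pairs, with a median ratio over the 13 of 6.09, a count that includes Vamp3 over Vamp2. The enolase pair differed most, Eno1 at 225 FPKM and the neuron-specific enolase Eno2 at 1.20 FPKM, although Eno1b, a near copy of Eno1, was listed as well at 85.4 FPKM. Aldoa was at 253 FPKM and Aldoc, a brain aldolase that also stands in the astrocyte list, at 8.97 FPKM. Among the exceptions was the chromatin remodelling subunit Smarcd3 (24.7 FPKM, Smarcd1 22.7 FPKM). For Vamp3 over Vamp2 the ratio stayed near 1, at 1.06, 0.977, 1.04 and 1.010, so no order can be given for this pair. Partners are alike in sequence, and reads shared between them were divided in a way that is not stated.

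**Figure D3:**
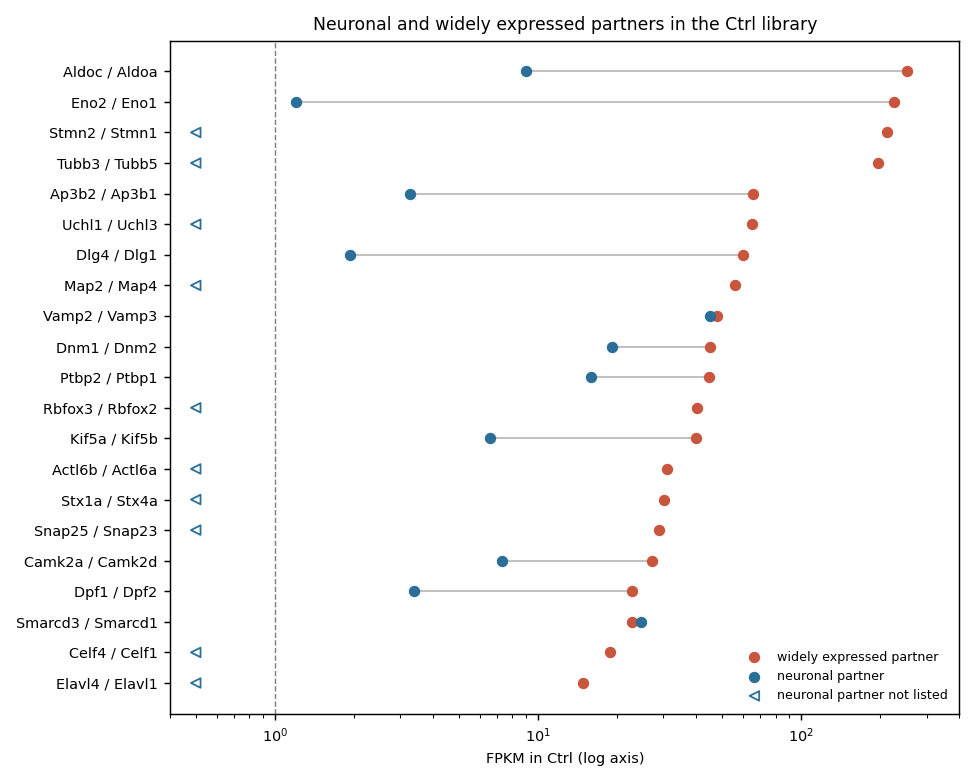
Level in Ctrl (FPKM, log axis) of the neuronal (blue) and the widely expressed (red) gene of 21 of the 23 pairs, with unlisted neuronal genes as open triangles at the left edge. The red points lie between 14.8 and 253 FPKM, and 10 neuronal partners are not listed.

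Genes of the machinery that represses neuronal genes were mostly members. Of 24 genes that repress neuronal genes or neuronal splicing, 20 (83.3%) were members, beside 48.3% of all protein-coding symbols. Whether they repress neuronal genes in these cells was not tested. Rest itself (GRCm38 chr5:77265491-77286432, plus strand) was at 19.2, 18.1, 16.6 and 15.5 FPKM, with its corepressors Rcor1 (11.1 FPKM), Rcor2 (31.7 FPKM) and Sin3a (34.4 FPKM). The histone deacetylases Hdac1 (71.9 FPKM) and Hdac2 (47.0 FPKM), the demethylase Kdm1a (47.0 FPKM) and the methyltransferase Ehmt2 (65.0 FPKM) were the highest of the list. Ptbp1, which blocks neuronal splicing, was at 44.7, 66.4, 66.1 and 78.2 FPKM, and its neuronal relative Ptbp2 at 15.9, 12.5, 9.98 and 9.79 FPKM. Ptbp1 was thus lowest and Ptbp2 highest in Ctrl.

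Few transmitter receptor genes were listed. Of 26 glutamate receptor genes, Grik5, a kainate receptor subunit, was the 1 listed, at 4.58, 0, 4.201 and 0.0375 FPKM, present in both Ctrl and Ctrl+OGD and at or near 0 in both PGC-1α libraries. All AMPA and NMDA receptor subunits and all metabotropic glutamate receptors of the list were not listed. GABA and glycine receptors gave 2 of 24, Gabbr1 at 10.9 FPKM, whose obligate partner Gabbr2 was not listed, and Gabrr1 at 2.03 FPKM. Cholinergic receptors gave 1 of 21, the muscle-type subunit Chrnb1 at 1.18 FPKM. Monoamine receptors gave 0 of 32, with Adrb3 listed at 0.769 FPKM.

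Purine receptors gave 9 of 18 at 1 FPKM or more, a share near the 48.3% of all protein-coding symbols. P2rx3, an ATP-gated channel best known from sensory neurons, was at 34.1, 20.7, 19.2 and 21.8 FPKM. P2rx4 (12.6 FPKM), P2rx1 (9.14 FPKM) and P2rx7 (8.19 FPKM) followed. Receptors for lipids, peptides and proteases gave 11 of 43, led by the thrombin receptor F2r at 77.1 FPKM, the lysophosphatidic acid receptor Lpar1 at 16.0 FPKM and the sphingosine-1-phosphate receptor S1pr3 at 7.15 FPKM. The opioid receptor genes Oprm1, Oprd1 and Oprk1 and the cannabinoid receptor genes Cnr1 and Cnr2 were not listed. Over all receptor lists, 59 of 257 genes (23.0%) were members.

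Several of the growth factor receptors with the highest levels, among them Pdgfra, Ddr2 and Pdgfrb, are known from mesenchymal cells, though not only from them. Pdgfra was at 59.1, 60.3, 37.2 and 40.0 FPKM, Fgfr1 at 51.5 FPKM, the collagen receptor Ddr2 at 47.9 FPKM, the Wnt co-receptor Ryk at 42.2 FPKM, Pdgfrb at 28.3 FPKM and Igf1r at 19.0 FPKM. In all, 17 of 54 receptor tyrosine kinases were members, and Egfr, Kit, Ret and the neurotrophin receptors Ntrk2 and Ntrk3 were not listed. Bdnf, the ligand of Ntrk2, was at 6.96, 5.52, 4.30 and 6.37 FPKM, nearly all from transcript Bdnf-205 (6.40 FPKM in Ctrl). Bdnf was therefore present while its tyrosine kinase receptor was not listed. Fndc5, the precursor of irisin, was not listed either. The TGF-beta family gave 12 of 14 receptors, with Eng at 58.2 FPKM, Tgfbr3 at 51.0 FPKM and Tgfbr2 at 20.04 FPKM, and 9 of the 12 were highest in Ctrl, beside 35.7% of all members.

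Glial genes gave 13 members of 54 (24.1%). The astrocyte list held 9 of them among its 18 genes (50%), near the 48.3% of all protein-coding symbols. Clu, a secreted chaperone, was at 126, 128, 77.6 and 76.4 FPKM, Sox9 at 20.7, 13.99, 9.21 and 9.11 FPKM, and Apoe at 13.3 FPKM. S100b was at 11.9, 18.4, 10.0 and 16.6 FPKM and Aldh1l1, a folate enzyme, at 3.99, 4.53, 2.75 and 2.32 FPKM. Of the defining astrocyte genes, S100b and Aldh1l1 were thus members, and Gfap, Aqp4 and Slc1a2 were not listed. The members of this list are also used by many other cells. Of 18 oligodendrocyte genes, Cspg4 (9.96 FPKM), Mbp (3.88 FPKM) and Cnp (2.28 FPKM) were members, and Mog, Olig2 and Sox10 were not listed. Of 18 microglial genes, 1 was a member. Cx3cr1 was listed at 0.0239, 0.519, 1.22 and 0.0396 FPKM, and Aif1, Itgam and Ptprc were not listed. Other lineages gave 1 of 29, the surface antigen gene Ly6c1 at 27.3 FPKM. Pecam1, Cdh5 and Cldn5 of endothelium and Epcam, Cdh1, Krt8 and Krt18 of epithelium were not listed.

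Mesenchymal genes made up a large group, 60 of 93 (64.5%), with a median of 48.1 FPKM among them, beside 12.8 FPKM for all members. Among 36 matrix genes, 26 were members. Sparc, a collagen-binding matrix protein, was at 557, 467, 440 and 411 FPKM, and the collagen chaperone Serpinh1 at 329.6, 279, 401 and 396 FPKM. Both chains of type I collagen were abundant, Col1a2 at 248, 265, 249 and 236 FPKM and Col1a1 at 175, 198, 169 and 156 FPKM. Bgn (272 FPKM) and Col6a1 (239 FPKM) were in the same range, Fn1 was at 136, 126, 76.6 and 91.2 FPKM, and Col3a1 was low at 3.17, 5.39, 2.94 and 3.07 FPKM. Lum, Dcn, Postn, Lox and Ccn2, common in fibroblasts, were not listed.

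In the surface and cytoskeletal list, 18 of 24 were members, with the intermediate filament Vim at 398, 437, 508 and 457 FPKM, Lgals1 at 354 FPKM, S100a4 at 316, 378, 702 and 437 FPKM and Cald1 at 269 FPKM. Thy1, Fap and Cdh2 were not listed. Mural and smooth muscle genes gave 6 of 16: the tropomyosins Tpm1 (109 FPKM) and Tpm2 (93.8 FPKM), Cnn2 (57.0 FPKM) and the muscle filament Des (26.5 FPKM) were highest, whereas Acta2 was at 0.768, 0.474, 0.847 and 0.548 FPKM and Tagln and Rgs5 were not listed. The transcription factors of epithelial-mesenchymal transition gave 10 of 17. Snai2 (Slug) was at 99.6, 43.7, 65.8 and 71.4 FPKM, highest in Ctrl, and Zeb2 (58.1 FPKM), Tcf4 (21.5 FPKM) and Twist2 (20.5 FPKM) followed. Their relatives Zeb1 and Twist1 were not listed. Matrix and contractile genes of mesenchyme were thus unequal, and no closer cell type was assigned.

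**Figure D4:**
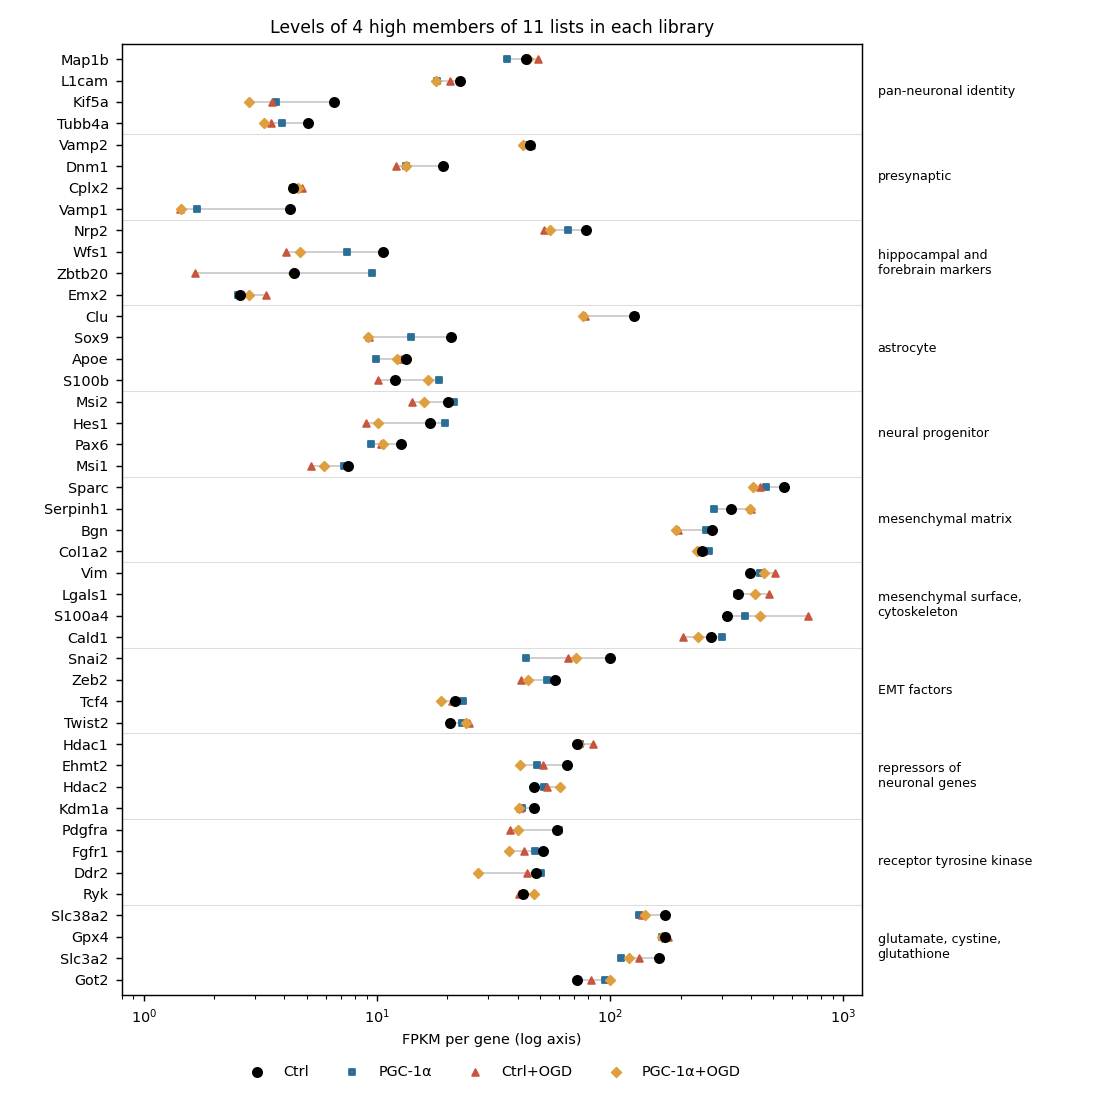
Level (FPKM per gene, log axis) of 4 high members of 11 lists in each of the 4 libraries, Ctrl in black, with a grey line from the lowest to the highest library. Levels differ far more between genes than between libraries, with the widest lines for Zbtb20, Vamp1 and Wfs1.

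Transcription factors gave 112 members of 219 (51.1%), near the 48.3% of all protein-coding symbols, but unevenly by family. Proneural and neuronal factors gave 4 of 41. Ebf3 was at 18.1 FPKM, Ebf1 at 18.0 FPKM, Dlx2 at 4.53 FPKM and Dlx1 at 2.31 FPKM, while the neurogenins, Myt1l, Pou3f2 and the LIM factors of the list other than Isl2 (0.291 FPKM) were not listed. Of 20 Sox genes, Sox9 was the 1 listed, and Sox2, Sox4 and Sox11 were not. Neural progenitor genes gave 6 of 20. Pax6 was at 12.7, 9.42, 10.4 and 10.6 FPKM, spread over 5 transcripts, Msi1 at 7.51, 7.20, 5.22 and 5.91 FPKM, Msi2 at 20.1 FPKM and the Notch target Hes1 at 16.9 FPKM, and Nes was not listed.

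Hox genes, which set position along the trunk and are normally silent in the forebrain, gave 26 of 39, and each of the 26 reached 1 FPKM in all 4 libraries. Hoxc10 (GRCm38 chr15:102966796-102971893, plus strand) was the highest, at 71.6, 69.3, 79.7 and 81.7 FPKM, rank 845 of the column. It shares 166 exon bases on its strand with Hoxc5 (1.66 FPKM). Hoxb7 (37.4 FPKM), Hoxa9 (28.4 FPKM), Hoxb6 (27.9 FPKM) and Hoxc9 (23.5 FPKM) followed. All 4 clusters contributed: 9 of 11 genes of Hoxa (chr6:52155590-52260880), 8 of 10 of Hoxb (chr11:96194316-96368256), 6 of 9 of Hoxc (chr15:102921103-103036852) and 3 of 9 of Hoxd (chr2:74668310-74765142).

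Along the clusters, the members changed with position. Paralogous groups 1 to 3, used from the hindbrain on, gave 5 of 8 with a summed level of 18.3 FPKM. Groups 4 to 8 gave 14 of 15 with 183 FPKM, and groups 9 and 10 gave 6 of 7 with 167 FPKM. Groups 11 to 13, the most posterior, gave 1 of 9, Hoxb13 at 7.17, 7.70, 8.56 and 8.30 FPKM. Members thus ran from group 1 to group 10, with Hoxb13 alone beyond them. Among the cofactors of Hox proteins, Pbx2 (19.2 FPKM) and Meis2 (13.6 FPKM) were members.

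**Figure D5:**
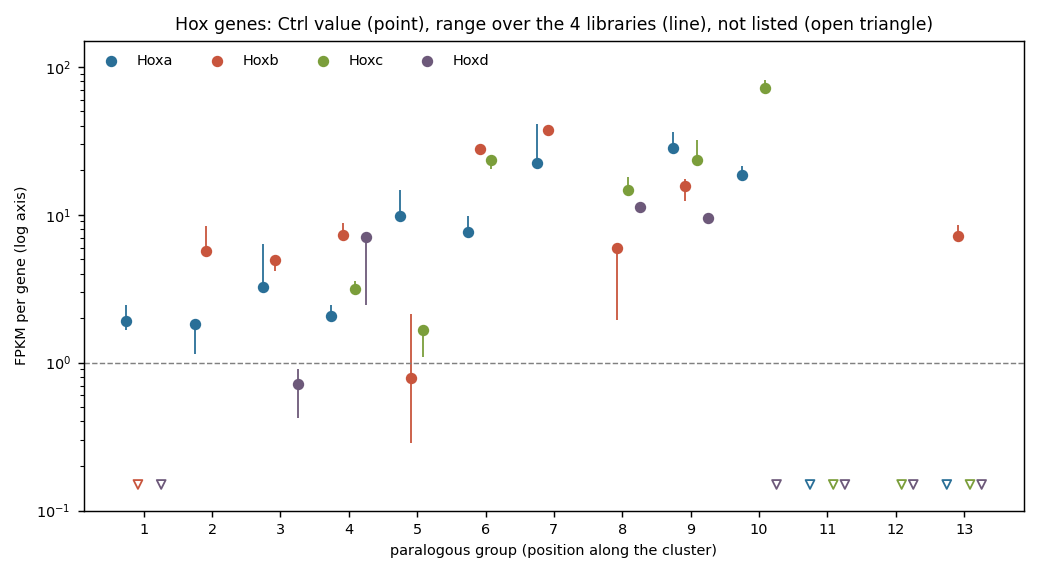
Level (FPKM per gene, log axis) of the 39 Hox genes by paralogous group, coloured by cluster, with the Ctrl value as a point, the range of the 4 libraries as a line and unlisted genes as open triangles at the bottom. Levels are highest in groups 6 to 10, with Hoxc10 at 71.6 FPKM, and Hoxb13 stands alone beyond group 10.

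Proliferation genes were members throughout, 20 of 20. Top2a was at 151, 167, 173 and 177 FPKM, Mki67 at 116, 154, 132 and 173 FPKM, Birc5 at 112, 165, 184 and 181 FPKM and Plk1, a mitotic kinase, at 16.6, 31.6, 44.9 and 41.7 FPKM. Ctrl was the lowest library for 19 of the 20 (95.0%), beside 27.1% of all members. Pcna was at 114 FPKM with its pseudogene Pcna-ps2 at 42.3 FPKM, so its share of reads is uncertain.

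Early response genes lay the other way. AP-1 and early response factors gave 16 of 23, and Ctrl was the highest library for 12 of the 16, beside 35.7% of all members. Egr1, induced by growth factors within minutes, was at 27.9, 5.49, 4.14 and 3.45 FPKM, Myc at 77.5, 33.0, 49.8 and 51.5 FPKM, Junb at 35.5, 22.6, 14.4 and 12.9 FPKM and Ier2 at 28.4, 13.7, 15.7 and 11.1 FPKM. Jund (71.5 FPKM) and Fosl1 (41.7 FPKM) were not highest in Ctrl, and Fos itself was at 1.88, 1.14, 0.718 and 0.0063 FPKM. The 3 other libraries share no single treatment, and with 1 library each a difference of condition cannot be told apart from one of culture or library.

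Nuclear receptors gave 26 of 49 (53.1%), near the 48.3% of all protein-coding symbols. Highest were the thyroid hormone receptor Thra (87.8 FPKM), the retinoic acid receptor Rarg (71.3 FPKM) and the glucocorticoid receptor Nr3c1 (38.3 FPKM). The vitamin D receptor Vdr (30.4 FPKM) and Rxrb (28.4 FPKM) followed. Thra shares exon bases on the opposite strand with Nr1d1 (11.5 FPKM). Thrb, Ppara, Nr4a1 and the progesterone receptor Pgr were not listed. TEAD, YAP and KLF genes gave 21 of 27, with the Hippo effectors Wwtr1 (21.2 FPKM) and Yap1 (19.5 FPKM) near Klf15 (21.1 FPKM) and Klf6 (20.8 FPKM).

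Metabolic genes gave 83 of 116 (71.6%). For the glutathione system, for which the line is best known, 25 of 28 were members. Slc3a2, the heavy chain of the cystine antiporter, was at 161, 111, 132 and 120.4 FPKM, but its cystine-specific light chain Slc7a11 was low, at 3.18, 2.42, 3.49 and 3.57 FPKM. Gpx4, which reduces lipid peroxides and guards against ferroptosis, was at 171, 167, 176 and 167 FPKM, and Acsl4, which supplies the lipids it protects, was at 8.18 FPKM. The catalytic subunit of glutathione synthesis Gclc was at 11.3 FPKM and its modifier Gclm at 3.15, 9.88, 6.76 and 6.59 FPKM. Slc38a2, a glutamine transporter, was at 172 FPKM and the aminotransferase Got2 at 72.0 FPKM. Of the glutamate transporters, Slc1a1 and Slc1a2 were not listed and Slc1a3 was at 0.514 FPKM.

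For fuel supply, the lactate transporter Slc16a1 (71.0 FPKM) and its chaperone Bsg (411 FPKM) were members, with Pkm at 183, 256, 277 and 279 FPKM and Ldha at 91.9, 149, 170 and 161 FPKM, both lowest in Ctrl. Transcripts Pkm-202 (110.5 FPKM in Ctrl) and Pkm-201 (68.9 FPKM) held most of the Pkm level. The glucose transporter Slc2a1 was at 16.5 FPKM, while Slc2a3, the transporter of neurons, and Slc16a7, the neuronal lactate transporter, were not listed. This list gave 9 of 25 (36%), below the 48.3% of all protein-coding symbols. Many of its genes are forms of other tissues, and whether this lowers the share was not tested. Serine and one-carbon genes gave 18 of 21, with Phgdh at 138, 155, 184 and 168 FPKM, Aldh1l2 at 118 FPKM, Dld at 113 FPKM and Mthfd2 at 97.3 FPKM. Ctrl was the lowest library for 10 of the 18, beside 27.1% of all members. Creatine, ketone and storage genes gave 14 of 21, led by the ketone-using enzyme Oxct1 (116 FPKM), Pygl (54.7 FPKM) and Acat1 (40.4 FPKM), and Ckb, the brain creatine kinase, was not listed.

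The study measured the mitochondrial antioxidants Sod2, Gpx1, Prdx3 and Txn2 and the uncoupling proteins Ucp2, UCP4 and UCP5 by qRT-PCR. It did so in mouse hippocampal tissue and not in HT-22 cells, so the Ctrl values below are of other material. Sod1, Prdx5, Ucp1 and Ucp3 are given beside them and were not among the genes it measured. Sod1, the cytosolic superoxide dismutase, was at 433, 400.2, 504 and 424 FPKM, and Sod2, its mitochondrial relative, at 22.2, 36.5, 24.4 and 30.2 FPKM. Gpx1 was at 32.5 FPKM, Prdx3 at 32.0 FPKM, Txn2 at 30.6 FPKM and Prdx5 at 111 FPKM. Prdx5 shares exon bases on the opposite strand with Trmt112 (83.0 FPKM). Of the uncoupling proteins, Ucp2 was at 11.1, 14.9, 17.1 and 15.3 FPKM, in Ctrl near the median member at 12.8 FPKM. Slc25a27 (UCP4) was lower, at 5.24, 4.17, 3.07 and 2.76 FPKM, and Slc25a14 (UCP5) was at 0, 0, 0 and 2.40 FPKM. Ucp1 and Ucp3 were not listed. Ppargc1a, which encodes PGC-1α, was at 0.900, 35.1, 0.103 and 8.41 FPKM, below 1 FPKM in both libraries without the transgene and above it in both with it, as the labels of the 4 libraries state. Its relatives Ppargc1b (5.35 FPKM) and Pprc1 (7.42 FPKM) were above it in Ctrl, as were Nrf1 (12.4 FPKM), Esrra (4.73 FPKM) and Tfam (18.3 FPKM), through which it acts on mitochondria.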

How the data were processed

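RNA-Seq of HT-22 cells was analysed in 4 libraries, 1 per group, grouped by the sample labels. Reads of both ends had been aligned by the authors with HISAT2 2.1.0 to build GRCm38 (per the processing notes), who deposited 1 table of values for 25889 transcripts. These deposited values were taken as FPKM, which the table does not name: they are never negative and their totals lie between 331892 and 353381. The quantifying program, the annotation, the use of strand in counting and the filter are not given in the sources used here, and reads per library are unknown.

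Transcripts were matched to GENCODE M21 by identifier without version (25822 matched, 67 did not), and values were summed per gene symbol. Nearly all were of the protein-coding type (25740), so noncoding and antisense genes are poorly covered. Genes at 1 FPKM or more in Ctrl were counted in 39 lists with 992 symbols written from general knowledge. Named genes were the 20 highest, the 3 highest members of each list (5 in lists of over 30), the pairs, the genes the paper measured and the defining markers; others were chosen after their values were seen. The members and lists were chosen with earlier results of these data known. Exons shared by genes were counted from 50 bases. Some genes that meet the rule are counted but not reported here by name.

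Alternatives were the highest transcript per gene, thresholds of 0.5 and 5 FPKM, a column total of 1000000, protein-coding transcripts, equal transcript versions and the other 3 libraries. The families and the exclusion of genes with shared exons were added after seeing the data. Tables were made with pandas 2.3.3 and numpy 2.4.6 under Python 3.11.15, figures with matplotlib 3.10.9, and the summing and counting steps were tested on simulated data.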

Additional observations from a re-analysis of the deposited data

How the results depend on the processing

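Of 70 recomputed counts over 8 results, 68 stayed within 1.5 times the reported count. The count of pairs with the widely expressed partner higher was recomputed only with the highest transcript per gene, which again gave 11. At a threshold of 5 FPKM, neuronal list genes fell to 25 and receptor list genes to 33. The count of genes in Ctrl ranged from 8295 (threshold of 5 FPKM) to 11316 (column rescaled). Leaving out genes that share exons with another gene at 1 FPKM or more, an alternative chosen after seeing the data, gave 44 neuronal, 57 receptor, 12 glial, 59 mesenchymal, 103 transcription factor and 74 metabolic list genes. No paired analysis was possible because each group had 1 library and no result came from a test. No replicate could be left out for the same reason, and since depth is unknown, values near 1 FPKM may lie on either side of the threshold.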

Other observations

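Other gene families, chosen by symbol after the values were seen, had members that the lists above do not cover. Of the Fgf, Wnt, interleukin and chemokine ligand genes, Fgf7, a growth factor made by mesenchyme for epithelia, was the highest in Ctrl. It was at 116, 133, 71.2 and 82.7 FPKM (Ctrl, then PGC-1α, then Ctrl+OGD and last PGC-1α+OGD). The neutrophil chemokine Cxcl1 followed at 83.7, 60.4, 28.7 and 27.0 FPKM. Both were lower in the OGD libraries than in the libraries without OGD. The monocyte chemokines Ccl2 (18.9, 27.3, 32.5 and 22.4 FPKM) and Ccl7 (17.7, 20.7, 28.6 and 17.7 FPKM) were instead highest in Ctrl+OGD. The cytokine Il1a was at 15.5, 9.85, 8.02 and 11.4 FPKM. In Ctrl, 12 of 74 interleukin and chemokine ligand genes reached 1 FPKM. The secreted phosphoprotein Spp1 (osteopontin) ranked 26 in Ctrl, at 807, 906, 648 and 669 FPKM.

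Several developmental regulators of different body regions were listed together. Tbx15, a limb and skin mesenchyme factor, was at 19.8, 19.3, 20.8 and 20.7 FPKM. Pax3 was at 13.4, 12.1, 12.2 and 12.6 FPKM and Irx2 at 8.38, 7.78, 9.21 and 8.48 FPKM. Their levels differed little between the libraries. In Ctrl, 3 of 15 T-box, 3 of 9 Pax and 1 of 6 Irx genes reached 1 FPKM. Each share was below the 48.3% of all protein-coding symbols. None of the 8 Lhx genes was listed, and of 17 Kcna to Kcnd potassium channel genes 0 were listed. Among adhesion genes, 2 of 23 cadherins reached 1 FPKM, the higher being Cdh24 at 2.87 FPKM, while 15 of 56 clustered protocadherins did so. The basement membrane collagens Col4a1 (83.3 FPKM) and Col4a2 (67.8 FPKM) and the lysosomal proteases Ctsz (153 FPKM) and Ctsl (119 FPKM) were abundant.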
